A study of Homo sapiens with 28 samples.

Results

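Chromatin accessibility was examined at the major histocompatibility complex (MHC) class II genes and at CIITA, their transcriptional master regulator, in human myeloma cell lines. The members were all regions whose nearest transcription start belonged to 1 of 10 genes, CIITA, CD74, HLA-DRA, HLA-DRB1, HLA-DQA1, HLA-DQB1, HLA-DPA1, HLA-DPB1, HLA-DMA and HLA-DMB, whether at a promoter or distal to it. This gave 41 of the 154985 regions of the series. The series measured accessible DNA by ATAC-seq, which tags open chromatin with a transposase, in 22 untreated myeloma lines and in 6 of these lines, Karpas620, KMS27, L363, MM1S, OPM2 and RPMI8226, analysed on day 3 of treatment with 10 µM lenalidomide, a drug that redirects the cereblon ubiquitin ligase. The untreated libraries were labelled with no treatment, and neither a vehicle nor a parallel culture time was given for them, so drug and any effect of vehicle or time in culture cannot be told apart. Each line was assayed once per condition, so there were no replicates within a line and comparisons rested on the spread between lines. KMS12BM and KMS12PE are known to derive from the same patient and were therefore not independent of each other.

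MHC class II molecules are heterodimers of an alpha and a beta chain that display peptides from the endosomal pathway to CD4+ T cells. The invariant chain CD74 escorts them to the endosome and HLA-DM, encoded by HLA-DMA and HLA-DMB, exchanges the last fragment of the invariant chain for peptide. Their genes share a promoter module of W/S, X, X2 and Y boxes, bound by the RFX complex, CREB family factors and NF-Y, to which the non-DNA-binding coactivator CIITA is recruited. B cells express class II constitutively, and differentiation to plasma cells, the cells from which myeloma arises, is known to silence CIITA through PRDM1.

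The libraries held between 1599857 and 5564534 counts in regions (median 2239819) in the untreated lines and between 2168680 and 4248017 after lenalidomide, and the number of regions with a called peak ranged from 18943 to 58983 in untreated lines. Levels are given as CPM, the counts of a region scaled to a common total of 1e+06 counts in regions. A region was taken as called where the deposited table listed at least 1 peak of that library within it. Of the plasma cell markers, the region nearest the start was called in at least 11 of 22 lines for 6 of 7 genes, and their summed level ranged from 128 to 325 CPM. The same held for 1 of 5 B cell markers with a region, namely BCL6, for 0 of 4 T cell markers and for 0 of 4 myeloid markers, with summed levels of 23.5 to 108, 4.65 to 35.0 and 3.22 to 56.0 CPM. CEBPA was not the nearest gene of any region.

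The promoter sequences are shown because the class II genes are defined by the module they share. The windows of 8 class II genes are given, and each covers positions -150 to -41 from the annotated start (GENCODE, GRCh37), which is the canonical start except for HLA-DPA1, whose canonical start lay outside its accessible region and was replaced by the commonest start within it. Capitals mark matches, on either strand, to CCAAT, the core of the Y box (ATTGG when read in the other direction), to AGCAAC, part of an X box, to TGCGTCA, an X2 box, and to the wider pattern AGNNACNGATG, which was formed from the HLA windows after the sequences had been read and overlaps AGCAAC.

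HLA-DRB1, chr6:32557666-32557775, minus strand: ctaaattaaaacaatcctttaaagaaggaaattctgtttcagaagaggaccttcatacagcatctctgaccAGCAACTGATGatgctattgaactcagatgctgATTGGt
HLA-DQB1, chr6:32634475-32634584, minus strand: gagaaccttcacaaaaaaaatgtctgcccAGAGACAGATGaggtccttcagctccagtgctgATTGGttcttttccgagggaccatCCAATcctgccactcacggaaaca
HLA-DMA, chr6:32920915-32921024, minus strand: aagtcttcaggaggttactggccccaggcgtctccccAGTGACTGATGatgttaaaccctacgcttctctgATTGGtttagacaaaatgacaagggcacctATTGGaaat
HLA-DMB, chr6:32908846-32908955, minus strand: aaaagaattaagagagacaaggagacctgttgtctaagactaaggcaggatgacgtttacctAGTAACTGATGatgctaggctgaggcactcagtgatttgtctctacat
HLA-DQA1, chr6:32605033-32605142, plus strand: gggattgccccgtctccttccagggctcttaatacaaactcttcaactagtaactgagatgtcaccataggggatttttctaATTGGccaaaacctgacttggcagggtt
HLA-DPA1, chr6:33041433-33041542, minus strand: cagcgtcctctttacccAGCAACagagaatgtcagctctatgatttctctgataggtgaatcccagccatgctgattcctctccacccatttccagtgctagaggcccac
HLA-DPB1, chr6:33043617-33043726, plus strand: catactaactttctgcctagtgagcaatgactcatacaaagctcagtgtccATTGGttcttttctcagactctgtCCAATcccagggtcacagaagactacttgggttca
CD74, chr5:149792514-149792623, minus strand: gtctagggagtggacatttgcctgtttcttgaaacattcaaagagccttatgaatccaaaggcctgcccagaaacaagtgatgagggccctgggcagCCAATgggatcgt

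CCAAT was found in 6 of these 8 windows, against 19.9% of 35116 RefSeq promoter windows of the same position and length (GRCh38.p14). The wider X pattern was found in 4, those of HLA-DRB1, HLA-DQB1, HLA-DMA and HLA-DMB, against 0.273% of promoters, a share that cannot be read as a test because these promoters prompted the pattern. AGCAAC was found in 2 windows (4.7% of promoters) and TGCGTCA in 0 (1.07%). The window of HLA-DMA held the X pattern from -113 to -103 and a Y box from -79 to -75. These matches describe the sequence, and no binding was measured.

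Across the 22 untreated lines, CIITA was accessible at its start in every line, whereas the class II genes differed from line to line. The region at the start of CIITA (chr16:10970611-10971731, ENSG00000179583) was called in 22 of 22 lines, a property of 29.4% of the 18012 regions that held a transcription start. Its level ranged from 16.2 CPM in XG-6 (95% Wilson interval 11.1 to 23.8, which covers counting error only) to 72.6 CPM in KMS12BM, with a median of 39.3 CPM. No line was near 0, and the SD of log2(CPM + 1) over the lines was 0.49.

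The remaining 12 CIITA regions were lower. A region over a further annotated start (chr16:10972520-10972985) was called in 4 lines, with a median of 8.58 CPM and a maximum of 17.4 CPM in KMS18. Upstream, a region 5689 bp before the nearest start was called in 10 lines (0.522 to 14.2 CPM, median 5.58) and another 8147 bp before it in 7 lines (0 to 17.4 CPM, median 3.48). All other CIITA regions were called in at most 4 lines. Summed over its 13 regions, CIITA ranged from 29.9 CPM in XG-6 to 143 CPM in KMS12BM.

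CD74 had the widest spread of the start regions. The region at its start (chr5:149791935-149792899, ENSG00000019582) had a median of 35.0 CPM and reached 97.6 CPM in KMS18, but held no count in XG-6, where 0 of 1602855 counts has a 95% Wilson upper limit of 2.40 CPM (1.87 CPM as the limit of 3 counts). It was called in 16 lines, in which its level was at least 23.7 CPM. In the other 6 lines it was 11.1 CPM in KMS28, 5.22 in OPM2, 4.49 in H1112, 3.03 in KMS34, 1.88 in PE1 and 0 in XG-6. No line lay between 11.1 and 23.7 CPM. Calls and levels come from the same reads, so the calls add no separate evidence for this gap. How often other start regions have such a gap was not examined. The SD of log2(CPM + 1) was 1.76, against a median of 0.71 over all regions with a start inside.

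**Figure D1:**
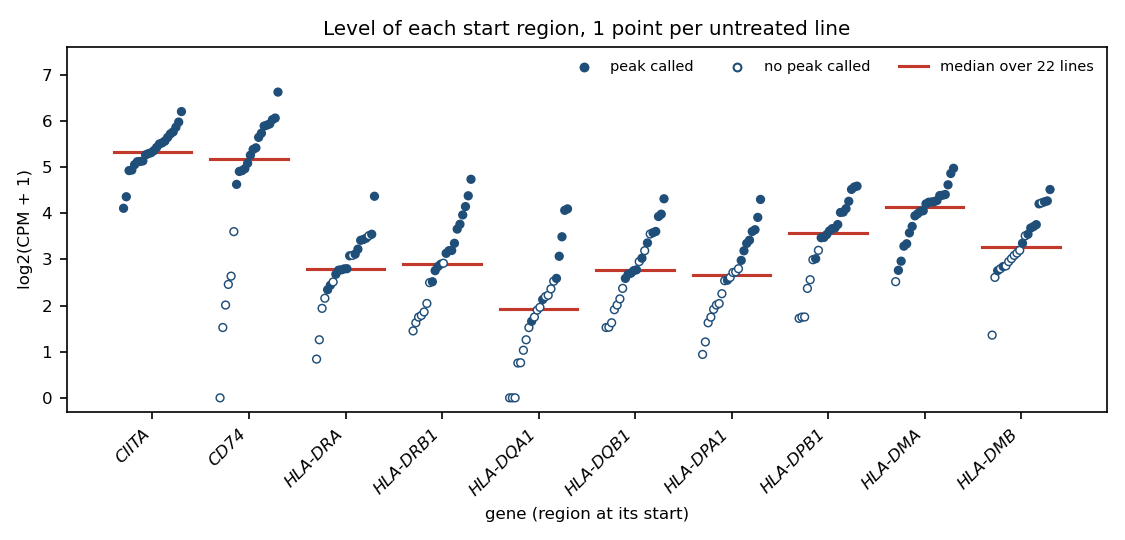
Level of the region at the start of each gene as log2(CPM + 1), with 1 point for each of 22 untreated lines in order of level, filled where a peak was called, and a red bar at the median. CIITA is filled in all 22 lines, CD74 runs from 0 in XG-6 to 97.6 CPM in KMS18, and the chromosome 6 genes lie lower.

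The classical class II genes, whose products form the peptide-presenting DR, DQ and DP heterodimers, had lower start regions that were called in 7 to 15 lines. The region at the start of HLA-DRA (chr6:32407315-32407914, ENSG00000204287), the DR alpha chain, was called in 15 lines and ranged from 0.789 CPM in KMS12BM to 19.6 CPM in KMS18, with a median of 5.94 CPM. That of HLA-DRB1 (chr6:32557310-32557890, ENSG00000196126), the DR beta chain, was called in 14 lines and ranged from 1.73 CPM in KMS34 to 25.6 CPM in LP1, with a median of 6.49 CPM. The lowest values rested on 3 counts for HLA-DRA in KMS12BM (Wilson interval 0.268 to 2.32 CPM) and 4 for HLA-DRB1 in KMS34 (0.673 to 4.45). The intervals of the highest lines lay above these, at 14.1 to 27.3 CPM in KMS18 and 19.9 to 33.0 CPM in LP1. Both genes were therefore low in some lines and higher in others, with intermediate values between. The size of the ratio is uncertain at such low counts.

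For the DQ chains, the start region of HLA-DQA1 (chr6:32604835-32605315, ENSG00000196735) was the least often called, in 7 lines, with 0 CPM in KMS34, PE1 and RPMI8226, a median of 2.81 CPM and a maximum of 16.1 CPM in LP1. The start region of HLA-DQB1 (chr6:32634244-32634656, ENSG00000179344) was called in 12 lines and ranged from 1.88 CPM in PE1 to 18.9 CPM in U266, with a median of 5.79 CPM. The DQ genes differed from the others in that their highest regions were distal. The region 4805 bp upstream of HLA-DQA1 (chr6:32590313-32591150) had a median of 14.0 CPM and was called in 15 lines, with 36.1 CPM in H1112 and 2.83 CPM in RPMI8226. The region 17805 bp upstream of HLA-DQA1 (chr6:32577503-32578150) lies between HLA-DRB1 and HLA-DQA1, was called in 20 lines and had a median of 15.4 CPM, with 29.1 CPM in LP1 and 3.78 CPM in RPMI8226. The region 17119 bp upstream of HLA-DQB1 (chr6:32653280-32653771) was called in 16 lines, with 2.08 CPM in Karpas620, a median of 9.92 CPM and 25.2 CPM in H1112. These 3 regions between genes were called in more lines than the DQ starts, a count that was not tested and in which width and depth differ, whereas the HLA-DQB1 region 1484 bp from a start and within the gene was called in 1 line.

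For the DP chains, the start region of HLA-DPA1 (chr6:33041232-33041647, ENSG00000231389) was called in 9 lines (0.919 to 18.7 CPM, median 5.33), and that of HLA-DPB1 (chr6:33043396-33043987, ENSG00000223865) in 15 lines (2.30 to 23.0 CPM, median 10.9). For both, KMS11 was lowest and LP1 highest.

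Of the peptide-loading genes, HLA-DMA had the higher median level. The start region of HLA-DMA (chr6:32920631-32921246, ENSG00000204257) was called in 21 of 22 lines, all but RPMI8226, and ranged from 4.72 CPM there to 30.4 CPM in LP1, with a median of 16.5 CPM. The start region of HLA-DMB (chr6:32908606-32909560, ENSG00000242574) was called in 11 lines and ranged from 1.57 CPM in OPM2 to 21.8 CPM in KMS12BM, with a median of 8.67 CPM. The number of lines depended on the threshold, since both starts reached 5 CPM in 21 of 22 lines. A further region assigned to HLA-DMA (chr6:32936085-32936632), called in 17 lines with a median of 26.5 CPM, also overlaps the promoter of BRD2, a bromodomain gene, and cannot be assigned to either gene.

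Per kb of region, the mean level of the start regions fell in the order CD74 (37.5 CPM per kb), CIITA (36.7), HLA-DMA (25.8), HLA-DPB1 (19.1), HLA-DQB1 (17.5), HLA-DPA1 (15.3), HLA-DRB1 (14.3), HLA-DRA (11.5), HLA-DMB (10.8) and HLA-DQA1 (8.48). Neighbours in this order overlapped widely across lines. A bulk measurement cannot tell a larger share of cells with open chromatin from more open chromatin per cell, and the DNA copy number of the lines was not tested. Reads of HLA genes can be lost or misplaced where a line's alleles differ from the reference or resemble a paralogue such as HLA-DRB5, and the part of this in the levels was not tested. Of the 41 member regions, 13 were called in at least 11 lines, or 31.7%, against 14.8% of all regions, 12 in exactly 1 line (37.1% of all regions) and 1 in all 22 lines (3.98% of all regions). Of the 10 start regions, 8 were called in at least 11 lines, against 60.3% of all regions with a start inside, and 8 had an SD of log2(CPM + 1) above the median of these regions. Over all 41 member regions, 21 had an SD above the median of the 154985 regions. This number was 15 with a pseudocount of 0.1 and 23 with TMM scaling. In all, 142 of the 220 combinations of a start region and a line were called.

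**Figure D2:**
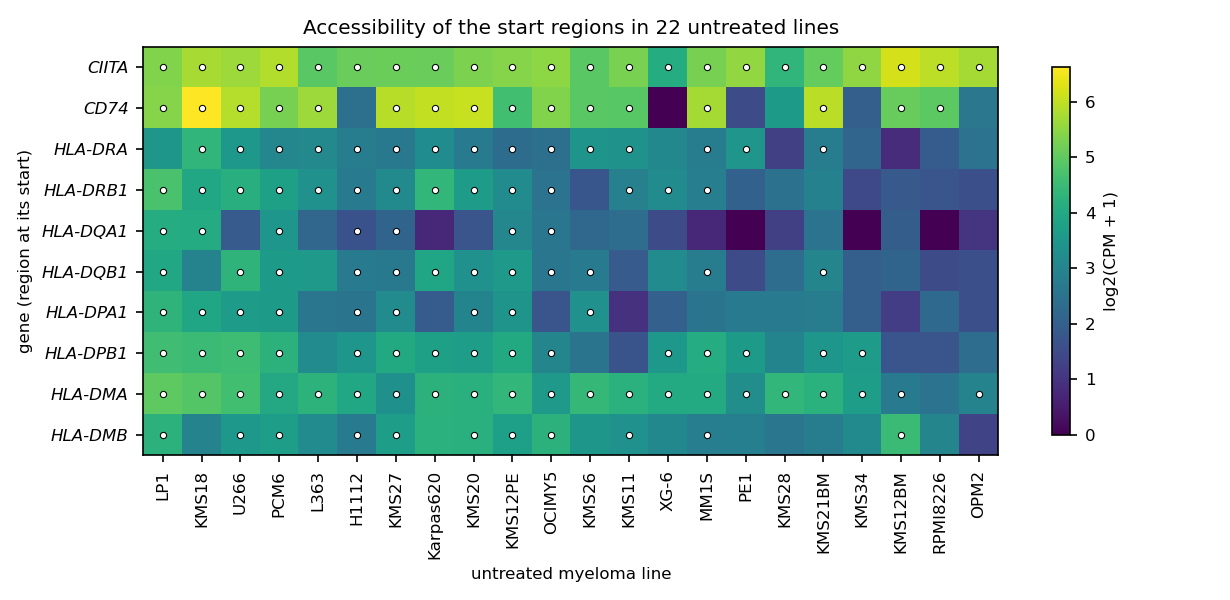
Level of the 10 start regions (rows) in 22 untreated lines (columns, ordered by the summed level of the chromosome 6 genes), coloured by log2(CPM + 1), with a white dot where a peak was called. LP1 and KMS18 on the left are high at most class II genes, RPMI8226 and OPM2 on the right are low, and the top row, CIITA, has a dot in all 22 lines.

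By line, between 1 and 9 of the 9 class II start regions were called. All 9 were called in KMS12PE, KMS27 and PCM6, and only 1 in KMS28, OPM2 and RPMI8226. In KMS28 and OPM2 that region was HLA-DMA, and in RPMI8226 it was CD74. This number was larger in deeper libraries (Pearson r = 0.53, Spearman rho = 0.54 over 22 lines), so the levels are the firmer measure. Summed over the 22 regions of the 8 chromosome 6 genes, the level ran from 83.5 CPM in OPM2 and 99.2 CPM in RPMI8226 to 285 CPM in KMS18 and 315 CPM in LP1, with a median of 155 CPM, and its r with log2 counts was 0.20. This sum includes the region shared with BRD2, which held 29.2 CPM in OPM2, 27.4 in RPMI8226, 37.6 in KMS18 and 30.0 in LP1. That region is thus a larger part of the sum in the 2 lowest lines. LP1 had the highest start region at HLA-DRB1, HLA-DQA1, HLA-DPA1, HLA-DPB1 and HLA-DMA.

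H1112 combined a low CD74 start with calls at every HLA gene, but the levels of these HLA starts were not high. It was the deepest library, with 5564534 counts, and had a called peak at the start of all 8 chromosome 6 genes, while its CD74 start was at 4.49 CPM (95% Wilson interval 3.04 to 6.63). Each of these 8 starts lay at or below its median over the lines, with 10.1 against 10.9 CPM at HLA-DPB1, 14.4 against 16.5 at HLA-DMA and 5.75 against 8.67 at HLA-DMB. The calls in H1112 may thus reflect its depth, which was not tested. In OPM2 the CD74 start was also low (5.22 CPM), and each of the 8 starts was lower than in H1112.

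The paired lines KMS12BM and KMS12PE, with 3802586 and 3929936 counts, differed at class II, and KMS12PE was higher at 7 of the 8 chromosome 6 starts. At HLA-DPB1 it had 15.3 CPM (95% Wilson interval 11.9 to 19.7) against 2.37 (1.25 to 4.50), and at HLA-DMA 19.8 CPM (15.9 to 24.8) against 5.79 (3.82 to 8.76). It had 9.67 CPM (7.05 to 13.3) against 1.31 (0.562 to 3.08) at HLA-DPA1, 10.9 CPM (8.12 to 14.7) against 3.42 (2.00 to 5.85) at HLA-DQB1, 8.14 CPM (5.77 to 11.5) against 2.63 (1.43 to 4.84) at HLA-DRB1 and 4.07 CPM (2.51 to 6.61) against 0.789 (0.268 to 2.32) at HLA-DRA. KMS12BM was higher at CIITA, with 72.6 CPM (64.5 to 81.7) against 42.0 (36.0 to 48.9), and at HLA-DMB, with 21.8 CPM (17.6 to 27.1) against 12.5 (9.43 to 16.5). These intervals did not overlap, while those of HLA-DQA1, with 7.38 CPM (5.14 to 10.6) in KMS12PE against 2.89 (1.62 to 5.18), and of CD74, with 23.7 CPM (19.3 to 29.0) against 32.9 (27.6 to 39.2), did. Each line had 1 library and the difference between them was not tested.

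Whether the level of CIITA followed that of its target genes was examined over the 22 lines. Summed CIITA and summed class II accessibility including CD74 had a Pearson r of 0.25 and a Spearman rho of 0.25. Without XG-6 and KMS12BM, the 2 lines farthest from the median of CIITA, r was 0.21, and with each line left out in turn it lay between 0.14 and 0.32. Under TMM scaling of the same sums r was higher, at 0.37. With the chromosome 6 genes alone r was 0.11, and between the single start regions of CIITA and HLA-DRA it was -0.09. Over the start regions, CIITA had r between -0.43 (HLA-DMA) and 0.33 with the 9 class II genes, above 0 for 3 of them. RPMI8226 and KMS12BM, which had the 2 highest levels at the CIITA start, were among the lowest at HLA-DPB1 and HLA-DMA. This did not hold for all genes or lines, since KMS12BM was the highest line at HLA-DMB (21.8 CPM). PCM6, next at the CIITA start (57.2 CPM), had 18.1 CPM at HLA-DPB1 and 14.9 at HLA-DMA, against medians of 10.9 and 16.5. These correlations share library depth, which had an r of 0.45 with the CIITA sum, and are given as descriptions.

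**Figure D3:**
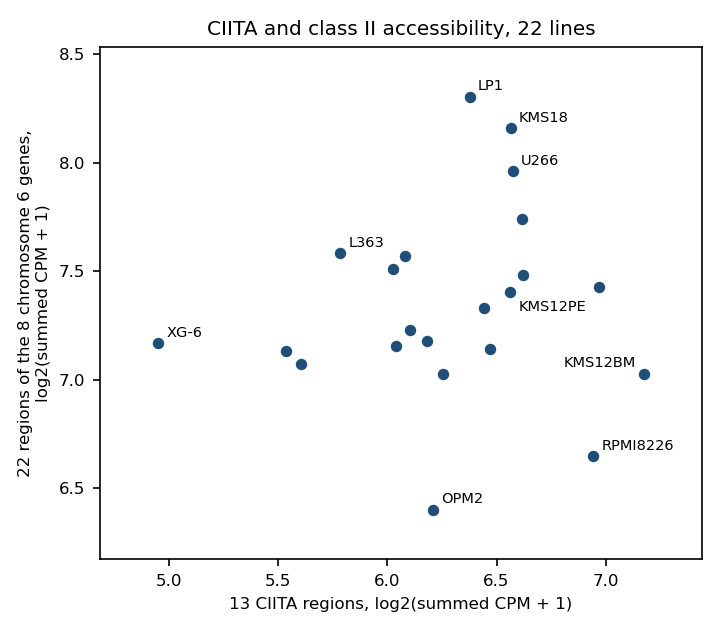
Summed accessibility of 13 CIITA regions (x axis) and of 22 regions of the 8 chromosome 6 class II genes (y axis), both as log2(summed CPM + 1), with 1 point per untreated line. The 22 regions include the one shared with BRD2. The points form no line (r = 0.11), with LP1 and KMS18 at the top at middling CIITA. At the right lie RPMI8226 and KMS12BM with low class II, and KMS20 (not labelled) with class II above the median (171 against 155 CPM).

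The class II genes did follow each other. Among the start regions of the 8 chromosome 6 genes, r had a median of 0.54 over 28 pairs and was above 0 in 27, whereas the HLA-DRA start had a median r of 0.00015 with 17430 start regions of other genes. The closest pairs were HLA-DRB1 with HLA-DQB1 (r = 0.86, rho = 0.88) and HLA-DPA1 with HLA-DPB1 (r = 0.75, rho = 0.72), the latter being neighbours. HLA-DMB had r from -0.03 with HLA-DRA, 0.13 with HLA-DPA1, 0.15 with HLA-DPB1 and 0.18 with HLA-DMA to 0.36 with HLA-DQA1, 0.43 with HLA-DRB1 and 0.48 with HLA-DQB1. CD74, on chromosome 5, had r between 0.17 and 0.48 with the chromosome 6 genes. Its median r with the 17430 start regions of other genes was 0.09, with 11184 above 0. The chromosome 6 genes were not compared with neighbouring starts elsewhere. The regions of genes outside the list that were most like the CIITA start region belonged to ABCC1 (r = 0.80), DLEC1 (0.75), SEMA3B (0.74), FAM129B (0.72) and FAM86A (0.69), and those most like the HLA-DRA start to GAS8 (0.79), FOXP1 (0.77), EPHX2 (0.73), FAM86B2 (0.66) and FAM76A (0.62). They were the highest of 27037 regions within 1000 bp of a start and over 22 lines. ABCC1 and FAM86A lie on chromosome 16, as does CIITA, and the part of DNA copy number in this likeness was not tested.

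Other genes of the pathway were described from a list. Among the factors that bind the module, the start regions of RFX5 (41.0 to 137 CPM), encoding the largest RFX subunit, and NFYB (7.88 to 31.4 CPM) were called in 22 lines and that of RFXAP in 21, whereas that of NFYC was called in 12. The nearest regions of NFYA (698 bp from its start) and of CREB1 (distal) were called in 1 line each. RFXANK had no region. Of the genes that induce CIITA downstream of interferon gamma, IFNGR1 and JAK2 were called at their start in 22 lines and IRF1 and JAK1 in 21, while the region 170 bp from the start of IFNGR2, the other receptor chain, was called in 8. PRDM1, encoding the plasma cell repressor that silences CIITA, was called in 22 lines (13.5 to 68.4 CPM). IRF8, active in B cells and myeloid cells, was called in 14 lines and SPI1 in 3. Of the other class II genes, HLA-DRB5 and HLA-DOA were called in 3 lines each and HLA-DOB, an inhibitor of HLA-DM with HLA-DOA, in 1.

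After lenalidomide, 3 of the 20 member regions with enough counts to be tested were more accessible and none was less accessible, over 6 pairs of the same line (edgeR quasi-likelihood test with the cell line as a block, Benjamini-Hochberg adjusted p below 0.05 over all regions). This was 15% of the tested members, against 4.17% of all 37732 tested regions called higher and 1.22% called lower (5.4% in either direction). The 3 regions were the start of HLA-DMA, the start of HLA-DQB1 and the region upstream of HLA-DRA. Of the 20 estimates, 16 were above 0, with a median log2 fold change of 0.32, against -0.01 over all tested regions, of which 48.3% were above 0. These figures describe the members that passed the filter on low counts, which the other 21 did not. Without that filter 5 of 41 were called, all higher, against 4092 of all 154981 regions, of which 3608 were higher.

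The HLA-DMA start rose in 6 of 6 lines. From untreated to treated it went from 18.04 to 26.6 CPM in Karpas620, from 9.11 to 26.0 in KMS27, from 18.4 to 27.7 in L363, from 15.4 to 24.3 in MM1S, from 6.78 to 14.9 in OPM2 and from 4.72 to 9.42 in RPMI8226. The groups overlapped, since OPM2 and RPMI8226 remained below the untreated level of other lines. The log2 fold change was 0.87 (SE 0.18, edgeR adjusted p = 0.00229), a rise of 1.83-fold, and it passed the test with each line left out (adjusted p up to 0.0332) and in DESeq2 (adjusted p = 0.00915), which called no other member against 2.21% of all regions. Its window printed above held the X pattern, as did those of HLA-DQB1, HLA-DRB1 and HLA-DMB, of which HLA-DRB1 (edgeR adjusted p = 0.519) and HLA-DMB (0.318) did not pass the test.

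The HLA-DQB1 start also rose in 6 of 6 lines. It went from 14.2 to 15.7 CPM in Karpas620, from 5.40 to 11.6 in KMS27, from 10.7 to 27.7 in L363, from 5.84 to 9.07 in MM1S, from 2.09 to 5.88 in OPM2 and from 1.89 to 2.59 in RPMI8226. L363 gained most, and the 2 lines lowest before treatment remained lowest after it. The log2 fold change was 0.82 (SE 0.24, edgeR adjusted p = 0.0328). The call rested on 4 to 60 counts per library and was lost in DESeq2 (adjusted p = 0.154) and without KMS27, L363, MM1S or OPM2 (adjusted p of 0.0702 to 0.207).

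The region upstream of HLA-DRA (chr6:32405056-32405615), which overlaps no gene body and lies 2003 bp from the start within the annotated promoter span, rose in 4 of 6 lines. It went from 6.75 to 17.8 CPM in KMS27, from 2.55 to 10.1 in L363, from 3.43 to 9.44 in MM1S and from 4.72 to 8.95 in RPMI8226, whereas it went from 5.90 to 5.09 in Karpas620 and from 3.65 to 2.26 in OPM2. The log2 fold change was 0.94 (SE 0.28, edgeR adjusted p = 0.0349) on 5 to 52 counts per library. The call was lost in DESeq2 (adjusted p = 0.247) and without KMS27, L363 or MM1S (adjusted p of 0.146 to 0.208). A peak was called there in 2 of the 6 untreated and 4 of the 6 treated libraries, and over all regions 5 of the 6 treated libraries had more called regions than their untreated pair (median 32233 against 28750). The stretch with its matches, CCAAT and AGCAAC on both strands, is printed because it carries letters that also occur in the class II windows printed above. Such matches are common. CCAAT occurs in 34.6% and AGCAAC in 12.8% of the full RefSeq promoter windows, which are shorter than the 560 bp of this region. Members that did not pass the test also held both, such as the CD74 start and the region 17119 bp upstream of HLA-DQB1. The wider X pattern was not found in the region.

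HLA-DRA upstream region, chr6:32405315-32405514, plus strand: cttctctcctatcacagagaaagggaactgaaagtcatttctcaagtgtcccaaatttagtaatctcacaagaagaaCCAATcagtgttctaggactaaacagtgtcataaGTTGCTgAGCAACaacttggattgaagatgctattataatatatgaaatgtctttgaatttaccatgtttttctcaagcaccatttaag

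The HLA-DRA start itself had a log2 fold change of 0.30 (SE 0.25, edgeR adjusted p = 0.608), with 10.6 against 5.40 CPM in KMS27 and 12.1 against 8.33 in Karpas620, and less than 1 CPM of difference in the other 4 lines. The starts of 5 further class II genes did not pass the test. Their log2 fold changes were 0.54 (SE 0.26) for HLA-DPA1, 0.42 (SE 0.22) for HLA-DMB, 0.35 (SE 0.25) for HLA-DRB1, 0.18 (SE 0.22) for HLA-DPB1 and 0.17 (SE 0.12) for CD74. The HLA-DQA1 start had too few counts to be tested. It was higher in 5 of 6 lines, with 12.7 against 3.37 CPM in KMS27, and without the filter on low counts its log2 fold change was 0.97 (SE 0.46, edgeR adjusted p = 0.393). HLA-DMB was nevertheless higher in 6 of 6 lines, from 8.16 to 17.5 CPM in L363 and from 7.08 to 7.30 in RPMI8226. Just outside the threshold were the CD74 region 2704 bp into the gene (chr5:149789419-149789590), with a log2 fold change of 0.97 (SE 0.32, edgeR adjusted p = 0.0713), and the region 17805 bp upstream of HLA-DQA1, with 0.54 (SE 0.18, edgeR adjusted p = 0.0767). The HLA-DMA region shared with BRD2 had a log2 fold change of 0.02 (SE 0.15).

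**Figure D4:**
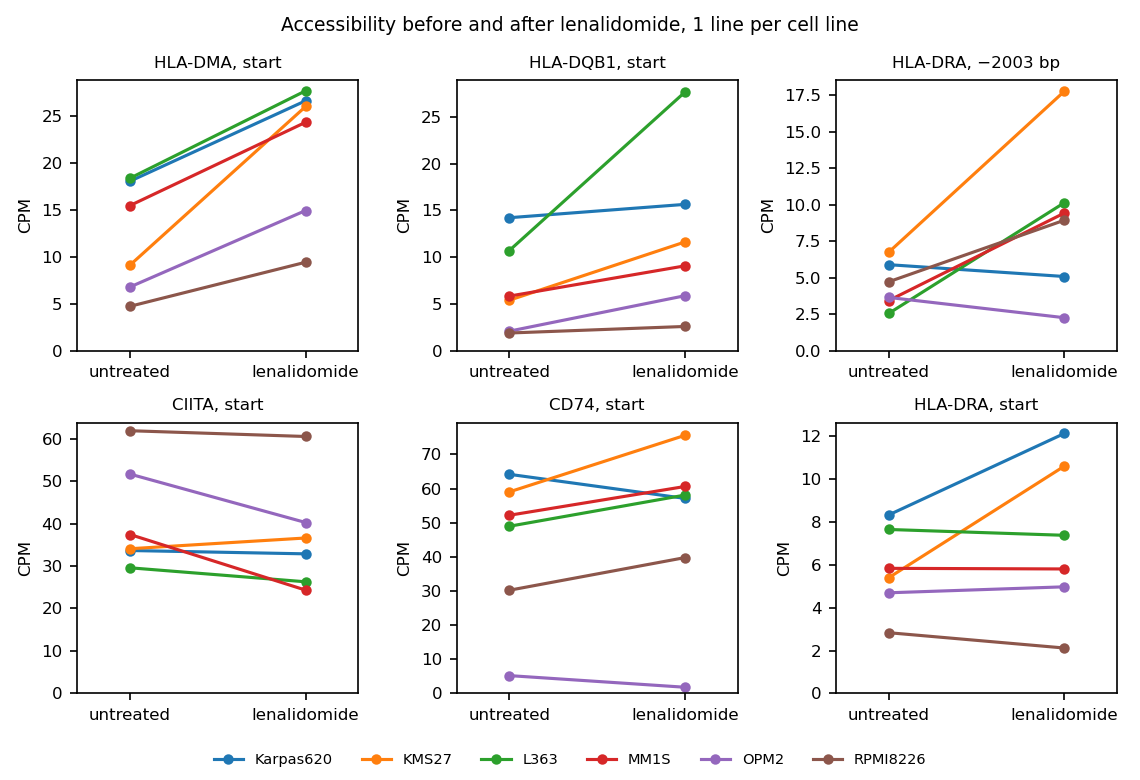
Level in CPM (y axis, from 0, scaled per panel) before and after lenalidomide in 6 lines, with 1 coloured line per cell line. The upper panels show the regions past the threshold, with HLA-DMA and HLA-DQB1 higher in 6 of 6 lines and the region upstream of HLA-DRA in 4 of 6, and the lower panels the starts of CIITA, CD74 and HLA-DRA.

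The CIITA start did not pass the test. It was 33.7 CPM before and 32.9 after in Karpas620, 34.1 and 36.6 in KMS27, 29.6 and 26.3 in L363, 37.4 and 24.3 in MM1S, 51.6 and 40.2 in OPM2, and 61.9 and 60.5 in RPMI8226. It was thus lower in 5 of 6 lines, with a log2 fold change of -0.17 (SE 0.12, edgeR adjusted p = 0.509). In OPM2 the CD74 start stayed uncalled, at 5.22 CPM before (10 counts) and 1.81 after (4 counts), while the other 5 lines had 39.8 to 75.6 CPM after treatment.

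A CIITA region 5177 bp before the nearest start (chr16:10965427-10965877), chosen here after its values were seen, was below the filter on low counts. It went from 2.70 to 13.3 CPM in KMS27, from 1.53 to 9.22 in L363, from 0 to 2.18 in MM1S, from 3.65 to 10.4 in OPM2 and from 7.56 to 12.9 in RPMI8226, and from 2.78 to 1.57 in Karpas620. A peak was called there in 0 of the 6 untreated and 4 of the 6 treated libraries, beside the larger number of called regions in 5 of 6 treated libraries. Without the filter its log2 fold change was 1.51 (SE 0.31, edgeR adjusted p = 0.00021 over 154981 regions). The summed CIITA accessibility, in which the start dominates, was higher in 3 of 6 lines, with a mean log2 change of 0.07 ± 0.28 (SD, n = 6).

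Summed over the 9 class II genes with CD74, accessibility was higher after lenalidomide in 6 of 6 lines, with a mean log2 change of 0.28 ± 0.13 (SD, n = 6) and a range from 0.09 in Karpas620 to 0.48 in KMS27. With the single highest region, the CD74 start, in place of the sum, the mean was -0.0200. For the chromosome 6 genes alone it was 0.33 ± 0.12 (SD, n = 6). For these genes OPM2 went from 83.5 to 104 CPM and KMS27 from 181 to 256 CPM, so OPM2 after treatment remained below the untreated level of every other paired line except RPMI8226. Both class II sums include the region shared with BRD2, which was higher in 3 lines and lower in 3. No p-value is given for these sums.

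**Figure D5:**
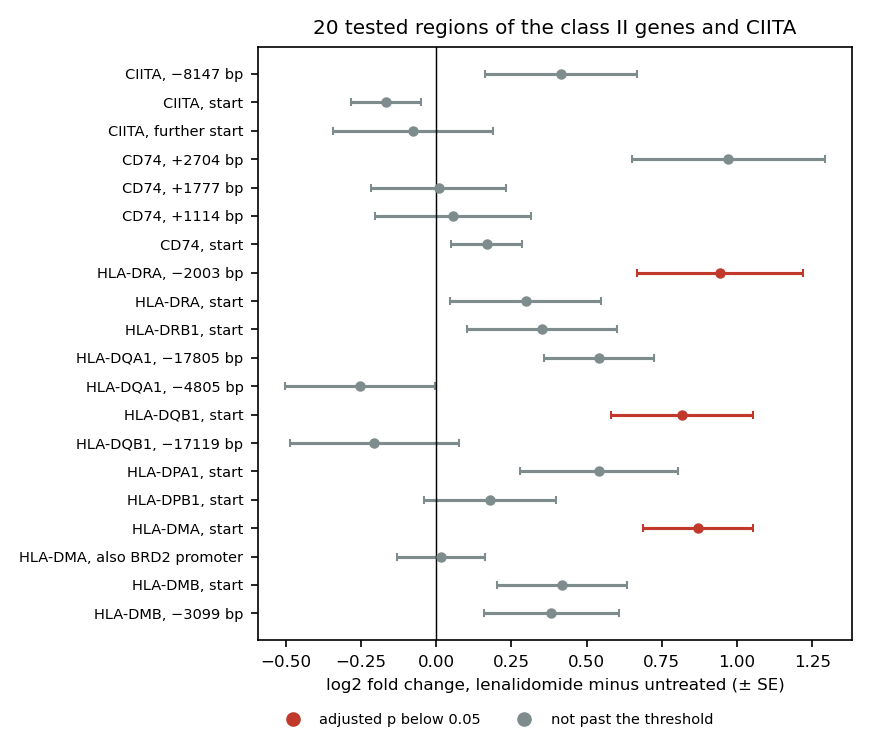
Log2 fold change after lenalidomide with its SE for the 20 tested regions, each named by its gene and its place relative to the nearest start, in red where the adjusted p was below 0.05. The 3 red regions are HLA-DRA at 2003 bp upstream (0.94), the HLA-DQB1 start (0.82) and the HLA-DMA start (0.87), and 4 of 20 estimates lie below 0.

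Among the other genes of the pathway, regions rose near some members of the list and fell near none. MARCH1, encoding a membrane ubiquitin ligase that removes class II from the cell surface, rose in the region 449 bp from its start (chr4:165057099-165058010) in 6 of 6 lines, with a log2 fold change of 1.19 (SE 0.20, edgeR adjusted p = 0.000211). In it OPM2 went from 37.6 to 78.7 CPM and MM1S from 10.3 to 30.5 CPM. These counts stand beside 4.17% of all 37732 tested regions called higher and 1.22% called lower. At the share called lower, the absence of falls among so few regions is near the background. Of 27 tested regions near regulators of CIITA, 3 rose, all distal. They belonged to IFNGR2 (18817 bp from the start, log2 fold change 0.83, SE 0.15), IFNGR1 (64353 bp, 1.29, SE 0.31) and IRF1 (4924 bp, 0.31, SE 0.08). The IFNGR1 region was higher in 5 of 6 lines and went from 4.16 to 1.17 CPM in Karpas620. The regions nearest the starts of IFNGR2, IFNGR1 and IRF1 did not pass the test (log2 fold changes 0.30, 0.03 and -0.02). Of 12 tested regions near the promoter-binding factors, 1 rose, upstream of NFYC (1.04, SE 0.24). None of the 8 tested regions of the antigen-processing genes CTSS, IFI30 and LGMN passed the test (those of CTSL were not tested), nor did the 1 tested region of the other class II genes, and MARCH1 was the single region of 5 to do so for the surface turnover genes MARCH1 and MARCH8. Among the markers, 0 of 30 plasma cell, 0 of 12 B cell and 0 of 1 myeloid regions were called, and 1 of 3 T cell regions, 9690 bp from the start of CD2, rose by 1.16 (SE 0.25). The part of such shifts in the class II values was not tested.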

How the data were processed

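ATAC-seq libraries of 22 untreated lines and of 6 of them after lenalidomide were analysed. The authors aligned reads to GRCh37 with Bowtie2 2.2.6, marked duplicates with SAMtools 1.7 and called peaks with MACS2 2.1.0.20151222 (q 0.01). Versions are from the submitters' processing notes. Whether duplicates were removed, ends shifted for the transposase, or reads or fragments counted is not given in the sources used here. The deposited raw counts per merged region, as made by the authors, were used. A second deposited table of whole numbers was read as the number of peaks per library and region, which the files do not define. The deposited coverage values and peak lists were not used.

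The members and lists were chosen with earlier results of these data known. Some listed genes and promoter sequences are not reported here. The start region of a gene was the region holding most of its GENCODE starts. Named were each gene's start region and its highest region over the 22 lines, every region past the threshold, and the 5 regions most like CIITA and HLA-DRA by Pearson r of log2(CPM + 1). Lenalidomide was tested with edgeR 4.0.16 (R 4.3.3, limma 3.58.1) with TMM, filterByExpr by condition and the line as a block. The pairing comes from the line names in the labels. The SE is the fold change divided by the square root of F. On simulated data for this comparison, 138 of 200 regions changed 2-fold were recovered among 37732, with 5 false calls. DESeq2 1.42.0, other scalings, filters, a pseudocount of 0.1 and each line left out were alternatives. An exact sign-flip test of the sums had been planned, but no p is given because the members were chosen with results known. Python 3.11.15, SciPy 1.17.1, pandas 2.3.3 and matplotlib 3.10.9 were used.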

Additional observations from a re-analysis of the deposited data

Results flagged for a closer look

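Among 22 sets of 6 within-line changes after lenalidomide (the 20 tested regions and the 2 sums), 3 held a line far from the other 5 by Dixon's criterion. Chance alone would give about 1.1 for independent sets of equal spread. The sums contain the regions and low counts widen the spread, so this figure is only a rough guide. At the CD74 start, OPM2 changed by -1.15 on the log2(CPM + 1) scale, from 10 to 4 counts, with the nearest other line at -0.17. At the region 4805 bp upstream of HLA-DQA1, Karpas620 changed by -1.34, from 13 to 3 counts, with the nearest other line at -0.39. At the region 3099 bp upstream of HLA-DMB (chr6:32911947-32912555), KMS27 changed by 1.69, from 8 to 32 counts, with the nearest other line at 0.42.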

How the results depend on the processing

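The HLA-DMA start was called under every alternative except the fit without the cell line as a block, and the other calls were less stable. The number of member regions called was 3 in the reported fit. It was 1 in DESeq2 (834 of all 37732 regions against 2036). With no filter on low counts it was 5 of 41 (4092 of 154981 regions), and with at least 10 counts in each library 1 of 3 (587 of 13790 regions). The 2 regions added without the filter were the CIITA region 5177 bp before a start and the region 17805 bp upstream of HLA-DQA1, both higher. Without the block it was 0 (0 of all regions in edgeR), with 0 members and 440 of all regions at an unadjusted p below 0.05. With 1 line left out, members called ranged from 1 (without KMS27) to 5 (without Karpas620) and all regions from 1067 (without MM1S) to 2503 (without RPMI8226). Without KMS27 there were 1310. The CIITA correlation over 22 lines turned from 0.25 to -0.0857 for the single highest regions of CIITA and HLA-DRA. Under TMM scaling it was 0.37. The mean log2 change of the class II sum turned from 0.28 to -0.0200 for the single highest region, the CD74 start, where OPM2 was lower. That of CIITA went from 0.07 to -0.18 with promoter regions only and to -0.02 without KMS27. Other settings left these values within the spread between lines. For the gene-wise lines with a called start, 2 CPM in place of a peak gave 14 for HLA-DQA1, 20 for HLA-DQB1 and HLA-DPA1 and 21 for HLA-DMB, so the threshold sets those counts. Depth limits the low regions, where 3 counts correspond to up to 1.88 CPM. Alternatives with the chromosome 6 genes alone, without KMS12PE and without the region shared with BRD2 were chosen after seeing the data.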
